A study of Mus musculus with 6 samples.

Results

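Pseudogene probe sets were taken as those named for 1 gene that RefSeq (mouse assembly GRCm38.p6) classes as a pseudogene or a transcribed pseudogene, with a mean level over all 6 arrays at or above the median of all probe set means, which was 1.92 on the log2 scale. Of the 65956 probe sets on the array, 4649 were named for such a gene at any level, and 2757 of these (59.3%) met the level rule. RefSeq classes 2523 of the 2757 as pseudogenes and 234 as transcribed pseudogenes. They were chosen by their mean level over the 6 arrays, so their levels are given as a description. The difference between knockout and control was not used to choose them.

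The arrays measured RNA of Lineage- c-Kit+ Sca1+ (LSK) cells, bone marrow cells sorted for stem cell markers and enriched for blood stem cells. The 3 knockout samples came from miR-21flox/flox:Mx1-Cre+ mice and the 3 control samples from miR-21flox/flox:Mx1-Cre- littermates, and the labels do not name the strain. Mice of both groups carried the floxed alleles on both chromosomes and received pIpC, a double-stranded RNA analogue that raises interferon, at 250 µg per injection in 7 injections starting at 4 to 6 weeks of age, with use in experiments 4 weeks later. Mx1 is an interferon-inducible promoter that is active in blood cells and in other tissues as well. Only the knockout mice carried Cre, so the presence of Cre and the loss of miR-21 cannot be told apart. The sample titles call the arrays biological replicates. They do not say whether an array held cells of 1 mouse or a pool, so the p-values measure the spread between these arrays.

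A pseudogene is a copy of a gene that has lost the ability to make the full protein. Processed pseudogenes arise when the messenger RNA of a gene is copied back into DNA and inserted elsewhere in the genome, and they often derive from highly expressed genes such as those of ribosomal proteins. Other pseudogenes arise by duplication of a gene followed by decay, or from a gene that is intact in some strains and disrupted in others. Many are not transcribed, but some give RNA of their own. Because a processed pseudogene resembles its parent's messenger RNA, an array probe set for one can also bind RNA of the other. Probe sequences were not used here, so the source of the RNA behind a probe set's value was not tested.

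The deleted gene gives a pair of mature microRNAs, shown here to identify what the knockout mice lacked. In each RefSeq sequence the capitals mark the seed, bases 2 to 8, which pairs with target messenger RNAs. Both lie on the minus strand of chromosome 11 in GRCm38.p6, miR-21a-5p at chr11:86584120-86584141 and miR-21a-3p at chr11:86584082-86584103.
mmu-miR-21a-5p: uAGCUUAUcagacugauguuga
mmu-miR-21a-3p: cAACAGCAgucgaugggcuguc
The array has 1 probe set whose annotation lists the miR-21 gene, and it lists the overlapping gene Vmp1 with it. That probe set read 5.65, 5.64 and 5.76 in the knockout arrays, against 5.65, 5.60 and 5.63 in the control arrays, and since it covers Vmp1 it is no check of the deletion.

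The promoters of 3 parent genes are shown because the parents changed and the comparison with their pseudogenes, given further on, turns on them. Each is the 150 bases before a RefSeq start of GRCm38.p6, read 5′ to 3′ on the gene's strand, with capitals at motif matches on either strand. Kif22, a kinesin that binds chromosomes, lies on the minus strand (chr7:127042421-127042570). Hmga2, an architectural chromatin protein of early progenitors, lies on the minus strand (chr10:120476470-120476619). Ldha, the A subunit of lactate dehydrogenase, lies on the plus strand (chr7:46845654-46845803), and the first of its listed starts is shown.
Kif22: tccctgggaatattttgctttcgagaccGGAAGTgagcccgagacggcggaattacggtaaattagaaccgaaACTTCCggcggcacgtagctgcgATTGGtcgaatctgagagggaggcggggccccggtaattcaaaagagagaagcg
Hmga2: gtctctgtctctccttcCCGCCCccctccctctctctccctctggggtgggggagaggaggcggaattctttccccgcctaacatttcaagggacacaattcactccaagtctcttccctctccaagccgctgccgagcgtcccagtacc
Ldha: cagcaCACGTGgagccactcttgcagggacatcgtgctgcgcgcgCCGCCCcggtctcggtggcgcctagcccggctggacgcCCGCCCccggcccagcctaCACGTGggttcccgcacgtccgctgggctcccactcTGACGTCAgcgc
The Kif22 window holds the ETS motif GGAAGT, which is in 13.6% of the 32851 RefSeq promoter windows of this length, and the NF-Y motif CCAAT, which is in 24.5%. The Hmga2 window holds the Sp1 motif GGGCGG, which is in 28.6%. The Ldha window holds the Sp1 motif, the E-box CACGTG, which is in 4.30% of windows, and the cyclic AMP response element TGACGTCA, which is in 1.36%. The TATA motif TATAAA (7.57% of windows) and the AP-1 motif TGACTCA (2.84%) were also searched for and were in none of the 3 windows. No searched motif contains another, and a match is a description of the letters only. The promoter table holds none of the 2757 pseudogenes.

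Pseudogene probe sets read higher in knockout than in control cells far more often than lower. At an adjusted p under 0.05 (limma, Benjamini-Hochberg over the 32985 probe sets at or above the level rule), 821 of the 2757 were higher (29.8%), where 11.5% of all fitted probe sets were higher. Only 89 were lower (3.23%), where 13.4% of all fitted probe sets were lower, and 1847 were not called. The median change, as knockout minus control on the log2 scale, was 0.18 over the pseudogene probe sets and 0.04 over all fitted probe sets. The quartiles of the change were 0.05 and 0.32 for the pseudogene probe sets, against -0.13 and 0.16 over all fitted probe sets, and 2270 of the pseudogene probe sets (82.3%) had a change above 0, against 58.7% of all fitted probe sets. Fewer cells of a type and less RNA per cell cannot be told apart in such bulk samples.

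The shift was made of many small changes. The median change was 0.38 among the higher calls and -0.47 among the lower calls. A change of at least 1.5-fold was called higher in knockout for 64 of the 2757, a larger share than the 1.46% over all fitted probe sets. It was called lower for 29, a smaller share than the 5.22% over all fitted ones. At least 2-fold, 5 were higher and 4 were lower, both smaller shares than the 0.349% and 1.66% over all fitted probe sets. The excess of higher calls was thus not seen at 2-fold. Of the 821 higher calls, 17 had a control mean under the level rule, and of the 89 lower calls, 2 had a knockout mean under it.

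The same shift showed in the arrays one by one. The median level of the 2757 probe sets was 4.87, 4.85 and 4.95 in the knockout arrays, against 4.65, 4.65 and 4.76 in the control arrays. The lowest knockout array lay above the highest control array. Protein-coding probe sets had medians of 4.43, 4.39 and 4.43 in the knockout arrays, against 4.43, 4.39 and 4.38 in the control arrays, so the groups overlapped there. All 3 knockout arrays exceeded all 3 control arrays for 1325 pseudogene probe sets (48.1%), where 24.4% of all fitted probe sets did so. All 3 lay below for 168 (6.09%), where 20.5% of all fitted probe sets did so.

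The count of higher calls depended on which arrays were used, although the direction did not. It was 537 without knockout replicate 2, 360 without knockout replicate 3, 510 without control replicate 1 and 456 without control replicate 2. It was 568 without knockout replicate 1 and 762 without control replicate 3. In the smallest case, without knockout replicate 3, 13.1% of the pseudogene probe sets were still higher, against 6.37% of all fitted probe sets. The median change ranged between 0.16 and 0.21 over these fits.

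Other kinds of probe set had smaller shares of higher calls. Of 13568 protein-coding probe sets, 13.3% were higher and 10.9% lower, with a median change of 0.06 and quartiles of -0.08 and 0.16. Of 1178 probe sets of long non-coding RNA genes, 4.33% were higher and 3.90% lower, also with a median of 0.06. Of 12759 probe sets with no listed gene, 6.03% were higher and 18.8% lower, with a median of -0.01. The pseudogene probe sets were also brighter, with a median level of 4.78 against 3.70 over all fitted probe sets, so the comparison was repeated within bands of level.

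Within each band the pseudogene probe sets had the larger share of higher calls. For mean levels under 3, 18.1% of the 646 pseudogene probe sets were higher, against 4.76% of protein-coding probe sets. Between 3 and 5 the shares were 30.7% of 808 pseudogene probe sets and 14.0% of protein-coding ones. Between 5 and 7 they were 35.9% of 546 and 17.2%, and at 7 and over they were 34.3% of 757 and 21.7%. Lower calls ran the other way in every band. They made up 1.55%, 4.58%, 3.66% and 2.91% of the pseudogene probe sets in the 4 bands, against 2.90%, 10.6%, 16.6% and 14.9% of the protein-coding probe sets. These shares are descriptions and were not tested against each other.

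The sorted cells also differed in marker genes between the groups. Of 8 LSK markers, 6 were lower and 0 higher in knockout, and their mean level per array was 6.38 to 6.40 in knockout and 6.75 to 6.83 in control. All 8 neutrophil markers were higher, with mean levels of 5.21 to 5.39 in knockout and 3.90 to 4.15 in control. Of the monocyte and macrophage list, 3 of 5 genes met the level rule and 2 of them were higher, at 5.43 to 5.45 in knockout and 4.82 to 4.89 in control. Of the 4 megakaryocyte markers 2 were higher, at 4.75 to 4.81 in knockout and 4.51 to 4.52 in control. The B cell list had 1 higher (3.31 to 3.37 in knockout, 3.24 to 3.31 in control), with Ms4a1 below the level rule. The T and NK cell list had 1 higher (3.29 to 3.39 in knockout, 3.10 to 3.16 in control), with Cd3d and Ncr1 below the rule. Of the 6 erythroblast markers, Klf1 was higher, Alas2 was below the rule and the other 4 had no probe set of their own, and the mean of the measured ones was 2.21 to 2.37 in knockout and 2.005 to 2.20 in control. The part of these differences in the pseudogene result was not tested. Correlations between arrays over all probe sets were 0.995 to 0.997 within groups and 0.987 to 0.991 between them.

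The class and name of the pseudogene went with the size of the shift. Of the 2523 probe sets in the RefSeq class pseudogene, 785 (31.1%) were higher and 75 (2.97%) lower, with a median change of 0.19. Of the 234 transcribed pseudogenes, 36 (15.4%) were higher and 14 (5.98%) lower, with a median of 0.09. Pseudogenes known only by a provisional Gm symbol were the bulk, with 726 of 2249 (32.3%) higher and 76 lower. Those named after a parent gene with the suffix -ps had 80 of 382 (20.9%) higher and 7 (1.83%) lower. Among the 126 with other symbols, 15 (11.9%) were higher and 6 (4.76%) lower. Over all fitted probe sets 11.5% were higher and 13.4% lower. The higher share of the group with other symbols was near the first of these. This last group includes 16 copies of the 5S ribosomal RNA gene, n-R5s, of which none was called and whose median change was 0.12. The groups also differed in level. The median level was 4.91 in the class pseudogene and 3.72 among the transcribed pseudogenes. By name it was 4.72 for Gm symbols, 6.56 for -ps symbols and 3.21 for other symbols. Class and name were not separated from level.

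Length and place in the genome were looked at because the rule used neither. Divided by the RefSeq span into 3 equal sets of 919, the shortest (52 to 696 bases) had 258 higher (28.1%) and 20 lower. The middle set (697 to 1261 bases) had 380 higher (41.3%) and 16 lower. The longest set (1262 bases and over) had 183 higher (19.9%) and 53 lower, and its median level was 4.03, against 5.71 in the shortest set. By chromosome, the share of higher calls ran between 18.5% on chromosome 19 and 41.7% on chromosome 10, over the 20 chromosomes with at least 50 pseudogene probe sets. Over all fitted probe sets of the same chromosomes it ran between 8.27% and 14.5%. The X chromosome held 372 of the pseudogene probe sets (13.5%) but 4.04% of all fitted probe sets, and 104 of the 372 were higher (28.0%) and 9 lower.

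Some probe sets cannot be told apart. Values identical on all 6 arrays to those of another probe set were found for 58 pseudogene probe sets (2.10%), in 29 sets, against 2.67% of all fitted probe sets. The copies Rpl35a-ps3, Rpl35a-ps4 and Rpl35a-ps6 form such a set, with 1 shared change of 0.12. Counting each set once left 2728 pseudogene probe sets, of which 816 were higher and 88 lower, with a median change of 0.18.

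The pseudogene probe sets with the highest called changes were mostly unnamed Gm loci, as was the list as a whole (2249 of 2757). Gm17149 read 5.76, 5.90 and 5.97 in the knockout arrays, against 4.25, 4.45 and 4.32 in the control arrays, a change of 1.54 ± 0.08 (SE, n = 3 each) or 2.91-fold (limma adjusted p = 3.99e-05). Ap3s1-ps2, a copy of the gene for the sigma subunit of the AP-3 vesicle coat, read 5.22, 5.33 and 5.51 in knockout, against 4.25, 3.95 and 3.82 in control (change 1.34 ± 0.12, limma adjusted p = 0.000301). In both the lowest knockout array lay about 1 log2 unit or more above the highest control array. Gm5843 read 5.01, 4.96 and 4.77 in knockout, against 3.90, 3.76 and 3.71 in control, a change of 1.12. Gm12957 was the brightest of the 10, at 8.72, 8.94 and 8.86 in knockout, against 7.67, 7.71 and 7.89 in control, a change of 1.08. Gm16436 was the last of those past 2-fold, with a change of 1.02, and Gm5832, Gm12919, Gm19898, Gm4242 and Gm3571 followed with changes between 0.78 and 0.93.

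The lowest called changes were those of Gm loci, a ferritin copy and Erdr1. Gm4899 read 4.03, 4.12 and 4.27 in the knockout arrays, against 5.31, 5.47 and 5.49 in the control arrays, a change of -1.28 ± 0.09 (SE, n = 3 each; limma adjusted p = 8.87e-05), or 2.43-fold lower. Fth-ps2, named after ferritin heavy chain, the iron storage protein, read 4.51, 4.37 and 4.31 in knockout, against 5.68, 5.54 and 5.62 in control (change -1.22 ± 0.08, limma adjusted p = 6.3e-05). Erdr1, erythroid differentiation regulator 1, which RefSeq classes here as a transcribed pseudogene, read 8.15, 8.17 and 8.12 in knockout, against 9.21, 9.20 and 9.04 in control (2.01-fold lower, limma adjusted p = 0.000104). In these 3 the groups lay about 1 log2 unit apart. Gm25549 had a change of -1.03, and Gm17709, Gm15065, Gm9115, Gm15186, Gm6081 and E030024N20Rik had changes between -0.93 and -0.86. In all 20 of the probe sets with the 10 highest and 10 lowest changes the groups did not overlap, which follows from choosing them by their change.

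Pseudogenes with Rpl, Rps or Rpsa symbols, copies of ribosomal protein genes, were the largest class with named parents. Of 196 such probe sets from 49 parent symbols, 46 (23.5%) were higher in knockout, against 11.5% of all fitted probe sets and 29.8% of all pseudogene probe sets. None was lower, 194 had a change above 0 and the median change was 0.20. All 3 knockout arrays exceeded all 3 control arrays for 121 of them (61.7%), where 24.4% of all fitted probe sets did so. Copies of Fau, a ribosomal protein gene with another kind of symbol, are not in this class, and of 2 such copies 1, Fau-ps2, was lower. Rps10-ps3 read 3.40, 3.49 and 3.44 in the knockout arrays, against 3.06, 2.93 and 3.05 in the control arrays, a change of 0.42 ± 0.07 (limma adjusted p = 0.00358). Rpsa-ps5, a copy of the gene for the laminin receptor protein of the small subunit, read 5.16, 5.26 and 5.35 in knockout, against 4.71, 4.75 and 4.88 in control (change 0.48 ± 0.08, limma adjusted p = 0.00437). Rpl13a-ps1, a copy of a large subunit protein gene, read 5.37, 5.42 and 5.48 in knockout, against 4.87, 4.88 and 5.11 in control (change 0.47 ± 0.08, limma adjusted p = 0.00543). These changes were of 1.3- to 1.4-fold, and the groups did not overlap in any of the 3.

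Copies of 1 parent differed among themselves in how many passed the test. Over the 15 parent symbols with at least 5 pseudogene probe sets (130 in all), each family's median change was above 0, between 0.03 and 0.37, but in 7 families no copy was called. Of 7 Rpsa copies 6 were higher, with changes between 0.10 and 0.48. Of 20 Rpl31 copies 3 were higher, with a median of 0.19. Of 13 Rps19 copies 4 were higher, with a median of 0.25, and of 13 Rpl21 copies none was called, with a median of 0.10. Of 5 Rpl23a copies 3 were higher, with the highest family median of 0.37, and of 7 Rps15a copies 4 were higher. Rps12 had 2 of 15 higher, Rpl35a 2 of 6 and Rpl9 1 of 5, while Rpl36 (8 copies), Rpl30 (8) and Rpl17 (5) had none called. These counts stand beside a share of 11.5% higher over all fitted probe sets, and those of Rpl31 and Rps12 are near it. Some copies counted apart have identical values, among them Rps12-ps6, Rps12-ps17 and Rps12-ps18. Of 7 Rpl7a copies none was called, although their median was also 0.25. The families outside the ribosome had the lowest medians, 0.06 for 6 copies of Hmgb1, a chromatin protein gene, and 0.03 for 5 copies of Ppp1r2, a phosphatase inhibitor gene, with none called in either.

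The other classes of housekeeping gene copies were small, and their counts stand beside a share of 11.5% higher over all fitted probe sets. Fth-ps2 and Fau-ps2, both lower, belong to none of these classes by their symbols. In glycolysis, Ldha-ps2 read 6.29, 6.24 and 6.41 in the knockout arrays, against 5.55, 5.72 and 5.82 in the control arrays (change 0.62 ± 0.09, limma adjusted p = 0.00247), and Pgam1-ps1, a copy of the phosphoglycerate mutase gene, had a change of 0.40, a call lost under 6 of the alternatives. Ldha-ps, the other of the 3 in this class, had a change of 0.29 (limma adjusted p = 0.0538). Of 9 chaperone copies 2 were higher, Dnajc19-ps with a change of 0.70, a call lost without knockout replicate 3, and Hspe1-ps3 with 0.53. Psmb5-ps, a copy of a catalytic subunit gene of the proteasome, was higher by 0.59 ± 0.08, at 6.74, 6.89 and 6.97 in knockout, against 6.30, 6.17 and 6.35 in control. Of 13 chromatin copies 2 were higher, H2af-ps2 with a change of 0.34 and Npm3-ps1 with 0.43, the second lost under 4 alternatives. In translation Eif5al3-ps was higher by 0.45 (1 of 5), in the cytoskeleton Tubb4b-ps1 by 0.35 (1 of 3) and in the respiratory chain Atp5c1-ps by 0.23 (1 of 3), the last lost under 10 alternatives.

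Pseudogenes whose parents serve special cell types showed no shared direction. Of 13 sensory receptor copies 2 (15.4%) were higher, against 11.5% of all fitted probe sets, and the class median was -0.02. These were Olfr269-ps1 and Taar7c-ps, close to the level rule at means of 1.94 and 2.06, and their calls were lost under 9 and 11 of the alternatives. The only globin copy with a -ps symbol, Hba-ps4, read 2.08, 2.44 and 2.40 in the knockout arrays, against 2.63, 2.89 and 2.77 in the control arrays, and was lower, with a change of -0.46 (limma adjusted p = 0.0227), a call lost under 3 alternatives. Ifi203-ps, the only -ps copy of an interferon-inducible gene, had a change of -0.23 (limma adjusted p = 0.0896), and neither zinc finger copy was called. The 129 copies outside these classes had 22 higher and 6 lower calls, with a median change of 0.07.

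A further set consisted of single genes, some disrupted in the reference strain and working elsewhere, picked out after their values were seen. Mx2 and Oas1b, interferon-induced antiviral genes, had changes of -0.11 and 0.04 and were not called, nor was Gbp11, a guanylate-binding protein gene (-0.11). C4a, a complement component gene, was higher, at 3.74, 3.87 and 3.70 in the knockout arrays, against 3.12, 3.24 and 3.20 in the control arrays (change 0.59 ± 0.07, limma adjusted p = 0.00125). Clec2j, a C-type lectin gene, was higher, at 2.95, 2.84 and 2.77 in knockout, against 2.24 in each control array (change 0.61 ± 0.07, limma adjusted p = 0.000754). Cdk3, a cell cycle kinase gene, had a change of 0.14 and Naip3, a gene of the inflammasome sensor family, one of 0.18, with neither called. The MHC class I genes H2-T10 and H2-Bl had changes of 0.13 and -0.04, with neither called. Hyi, a hydroxypyruvate isomerase gene, was higher by 0.22 (limma adjusted p = 0.0461), a call lost under 9 alternatives. The locus 2610005L07Rik had 2 probe sets, both lower, with changes of -0.47 (limma adjusted p = 0.0049) and -0.41 (limma adjusted p = 0.00369). Zxda, a zinc finger gene, had 2 probe sets that disagreed, 1 lower at -0.48 (limma adjusted p = 0.00566) and 1 not called at 0.06.

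Some pseudogenes on the list always reported are not among the called. Trp53-ps, a copy of the p53 gene, had a change of 0.19 (limma adjusted p = 0.0723), Mkrn1-ps1 of -0.12 and Hbb-bh3, a beta-globin locus pseudogene, of 0.08. H2-K2, an MHC class I gene, had a change of -0.19 (limma adjusted p = 0.0579). Ear-ps2 and Mcpt-ps1 were below the level rule. The 5 brightest pseudogene probe sets lay near the top of the scale, at 11.0 to 11.2. Of these Gm12537 was higher by 0.19 (limma adjusted p = 0.0474), a call lost under 9 alternatives, and Gm10359, Gm7117, Gm4609 and the ubiquitin copy Ubb-ps were not called, Ubb-ps with a change of -0.00. At the other end, Gm25373, Gm15740 and Gm13915 lay just inside the level rule at means of 1.92 to 1.93, and Gm11582, Gm26404 and Gm20796 lay just outside it at 1.92.

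Parent genes could be compared with their pseudogenes in 155 pairs from 84 parents, and the pseudogene usually had the larger change. The pseudogenes of the pairs were higher in 37 and lower in 2, while of the 84 parents 14 were higher, 3 lower and 67 not called. Over all fitted probe sets 11.5% were higher and 13.4% lower, so the parents were higher more often, and lower less often, than that. Among protein-coding probe sets 4.76% were higher at levels under 3, 14.0% between 3 and 5, 17.2% between 5 and 7 and 21.7% at 7 and over. The parents' share of higher calls lay within this range, and the parents were not matched by level. The median change was 0.19 over the pseudogenes of all 155 pairs and 0.10 over the 84 parents, each counted once, so large families weigh more on the pseudogene side. The change of the pseudogene exceeded that of its parent in 127 pairs, and the median difference over all 155 pairs was 0.12. In 82 pairs the pseudogene probe set had the higher level, so the parent was often read on the dimmer probe set. In 16 pairs both were called in the same direction, 15 of them higher, and in 1 the directions were opposite. The count of 16 was 4 without knockout replicate 1, 10 without knockout replicate 2, 5 without knockout replicate 3, 5 without control replicate 2 and 7 without control replicate 3. The pseudogene alone was called in 22 pairs, 21 of them higher, the parent alone in 6 and neither in 110. The pairs share parents and arrays, and across them the changes had a Pearson r of 0.50 and a Spearman rho of 0.45, with a Pearson r of 0.36 once Ap3s1-ps2 was left out.

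Ribosomal pairs made up much of the comparison. In 74 pairs from 18 parents, 20 of the 74 pseudogenes were higher, while of the 18 parents 2 were higher and 0 lower. Over all fitted probe sets 11.5% were higher and 13.4% lower, and the parents' share of higher calls was near the first of these. The median change was 0.22 over these pseudogenes and 0.13 over their parents, each parent counted once, and 69 of the 74 differences were above 0. Many of these pairs share the parents Rpl31 (20 copies) and Rps19 (13 copies), whose probe sets are dim beside many copies. The mean level was 5.25 for Rpl31, with copies reaching 10.5, and 5.19 for Rps19, with copies reaching 9.20. Rps19 read 5.20, 5.13 and 5.22 in the knockout arrays, against 5.23, 5.16 and 5.21 in the control arrays, a change of -0.02. Its copy Rps19-ps11 read 5.64, 5.79 and 5.82 in knockout, against 5.16, 5.26 and 5.36 in control, a change of 0.49 (limma adjusted p = 0.00446). In the copy the groups stood apart, and in the parent they overlapped. Rpl31 had a change of -0.16 and was not called, and its copies Rpl31-ps5 and Rpl31-ps24 had changes of 0.45 and 0.40, of which the first passed the test (limma adjusted p = 0.0384) but not under 5 alternatives.

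Where both members of a pair were called in the same direction, the sizes were close in some pairs and differed in others. The 6 such pairs given here are those with the largest smaller change. Ap3s1 read 5.54, 5.68 and 5.75 in the knockout arrays, against 4.33, 4.25 and 4.28 in the control arrays, a change of 1.37 beside the 1.34 of Ap3s1-ps2. Gpr137b, a lysosomal membrane protein gene, was lower, with a change of -0.49, and Gpr137b-ps was lower, with a change of -0.71, at 3.98, 3.89 and 3.72 in knockout, against 4.61, 4.63 and 4.49 in control. Ldha, whose promoter is shown above, was higher by 0.36 beside the 0.62 of Ldha-ps2. Pgam1 was higher by 0.45 and its copy by 0.40, Itpa, an enzyme gene that clears inosine triphosphate, by 0.41 and its copy by 0.48, and Got2, the mitochondrial aspartate aminotransferase gene, by 0.35 and its copy by 0.51. The 3 copies of Pisd, the phosphatidylserine decarboxylase gene of mitochondria, were higher by 0.31 to 0.44, and Pisd itself had a change of 0.20 (limma adjusted p = 0.0835).

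Other pairs moved apart. Kif22 read 6.87, 6.78 and 7.01 in the knockout arrays, against 6.07, 5.97 and 5.98 in the control arrays, a change of 0.88 ± 0.08 (limma adjusted p = 0.000256). Kif22-ps, near the level rule at 1.98, 1.89 and 1.99 in knockout, against 2.22, 1.93 and 1.91 in control, had a change of -0.07. Hmga2 was lower, at 3.93, 3.90 and 3.75 in knockout, against 4.98, 4.68 and 4.57 in control (change -0.88 ± 0.11, limma adjusted p = 0.00147). Hmga2-ps1 had a change of 0.22 (limma adjusted p = 0.214), and the difference in change within arrays was 1.10 ± 0.28. Bambi, a membrane protein gene that dampens TGF-beta signals, was lower, with a change of -0.48, while Bambi-ps1 was higher by 0.30, the 1 pair called in opposite directions. The call of Bambi-ps1 was lost under 8 alternatives, among them the replicate block, centring, no filter on dim probe sets and 5 of the 6 fits that left out an array. Fau-ps2 was lower, with a change of -0.65 (limma adjusted p = 0.00655), and its parent Fau, a ribosomal protein gene, had a change of 0.20 and was not called. The remaining pairs among the 5 lowest differences, pseudogene minus parent, moved less far apart. They were Fut4-ps1 (difference -0.24), Gpr137b-ps (-0.23) and Ccl19-ps1 (-0.17), of which only Gpr137b-ps was called. The within-array differences of the 10 pairs with the highest and lowest differences did not overlap between the groups, which follows in part from choosing them by that difference. The two-sided exact permutation p was 0.1 for each, the smallest that 3 arrays against 3 allow, and adds nothing for pairs so chosen. Over all 155 pairs the differences did not overlap in 73, of which 64 were above 0 and 9 below. For the levels of single probe sets, 24.4% of all fitted ones lay wholly above and 20.5% wholly below in knockout. Of the pseudogene probe sets 48.1% lay wholly above and 6.09% wholly below. A level is another measure than a difference within a pair, and no share was computed for unrelated pairs. Whether the total of 73 is particular to these pairs was therefore not tested.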

How the data were processed

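RNA of LSK cells was measured on 6 Affymetrix arrays, 3 knockout and 3 control, grouped by the sample titles. Values are log2 levels as the authors deposited them, and RMA is named, per the submitters' processing notes. This method gives all arrays 1 intensity distribution, so a change shared by most transcripts would not be seen. No source states the log base, which was taken as 2 because of how far the values reach. The software version and genome build are not given in the sources used here. An array value has no count behind it, and the number of arrays limits the precision.

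Probe sets were named through GEO's platform annotation: 31221 had 1 gene, 1529 several and 33206 none listed. Symbols and gene classes came from RefSeq (GRCm38.p6), by Entrez ID for 23558 of those with 1 gene and by symbol for 7145, with 518 unmatched. Of the 2757 pseudogene probe sets, 362 matched by Entrez ID and 2395 by symbol. A parent is the gene whose symbol precedes -ps, read on its brightest probe set. Of 382 probe sets with -ps symbols, 227 had no parent compared, including parents whose probe set lists several genes.

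The test was two-sided and had no covariate: lmFit and eBayes of limma 3.58.1, run in R 4.3.3, with Benjamini-Hochberg adjustment over 32985 probe sets, and checked on simulated data. A change given with ± has its standard error. The members, gene classes and marker lists were chosen with earlier results of these data known. Genes named came from the sets that follow, and some members of the class sets and of those picked later are not printed. The first sets are the 10 highest and 10 lowest called changes and the 5 highest and 5 lowest differences from a parent. Others are the 6 pairs moving together with the largest smaller change, the 5 brightest and 3 on each side of the level rule. The rest are up to 3 per class by p, a set always reported and those said to be picked after their values were seen. Alternatives covered the level filter, scaling, the variance model, array weights, 1 probe set per gene, the replicate number as a block, and each array left out.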

Additional observations from a re-analysis of the deposited data

Results flagged for a closer look

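Pseudogene probe sets below the level rule lie outside the comparisons above. When limma was fitted to the whole table of 65956 probe sets, 39 of these 1892 were higher in knockout (2.06%) and 5 were lower, at an adjusted p under 0.05. Over all 32971 probe sets below the level rule, 237 were higher (0.719%) and 357 lower. The median change was 0.02 for the pseudogene probe sets and 0.01 for all probe sets below the rule.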

How the results depend on the processing

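The median change of the pseudogene probe sets stayed above 0 in every alternative run, and higher calls made up 83.7% to 92.3% of the calls. Leaving out 1 array gave 360 to 762 higher calls, 64 to 72 lower calls and 4 to 11 pairs called in the same direction. That pair count was 8 with no filter on dim probe sets and 9 with each array centred on its median. With only the 362 probe sets matched by Entrez ID, an alternative added after the data were seen, 76 were higher, 14 lower and 2 pairs moved together, by construction fewer. With the replicate number as a block there were 995 higher and 91 lower calls, against 821 and 89 without it. The median change was 0.18 and 16 pairs moved together. Under the block 13.2% of all fitted probe sets were higher and 14.3% lower. The same-numbered arrays' deviations correlated at 0.17, 0.20 and 0.07, and all 6 arrays correlated best with their own number. The sample titles state no pairing, so the main fit used none, and whether same-numbered arrays belong together is not known. Of 53 named probe sets past the threshold, 40 stayed past it in every alternative that tested them and none reversed. The other 13, each lost in at least 1, were Atp5c1-ps, Bambi-ps1, Dnajc19-ps, Gm12537, Hba-ps4, Hyi, Itpa-ps1, Npm3-ps1, Olfr269-ps1, Pgam1-ps1, Pisd-ps2, Rpl31-ps5 and Taar7c-ps. The cause of the other moved counts was not tested.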
